A study of Sus scrofa with 6 samples.

Results

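The genes described here encode the proteins of the mitochondrial ribosome, and their transcripts were followed in pig nuclear transfer embryos and in the cultured cells that supplied the nuclei. Members were taken as the genes whose single annotated symbol starts with MRPL or MRPS followed by a digit. This gave 58 of the 6765 genes with a single symbol on the array, 36 named for the large subunit and 22 named for the small subunit. They were covered by 77 probe sets, and each gene was read from the probe set with the highest mean log2 signal over the 6 arrays. Another 6 probe sets that carry a member's symbol beside other symbols were left out. Of the 58 members, 57 were found under the same symbol in the RefSeq gene table of the pig, the exception being MRPS25.

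Each array measured 1 sample. The groups were nuclear transfer embryos that received anti-DJ1 antibody by injection (n = 2), those that received IgG (n = 2), those left non-injected (n = 1) and the donor cells (n = 1). Every embryo sample pooled between 23 and 26 embryos taken 28 h after nuclear transfer, when many had just become 2-cell embryos, and all recipient oocytes came from a slaughterhouse. The donor cells were cultured fibroblasts established from an adult Meishan pig. Trial 1 held 1 array of each group, and trial 2 held a biologically separate anti-DJ1 pool and IgG pool, with the IgG array of each trial serving as that trial's control. The antibody binds the protein DJ-1, an oxidative stress responsive protein encoded by PARK7, so no transcript level checks that it acted. All embryo groups share the enucleated oocyte, the transferred nucleus and the culture medium, and the injected groups also share the injection.

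Mitochondrial ribosomes translate the few messages encoded in mitochondrial DNA, which specify core subunits of the respiratory chain. Their ribosomal RNAs are made inside the organelle, whereas every protein of the particle is encoded in the nucleus, made in the cytosol and imported. Some of these proteins descend from bacterial ribosomal proteins and others have no bacterial counterpart. Cleavage embryos inherit their mitochondria and most of their messenger RNA from the oocyte, and in the pig the main activation of the embryonic genome comes after the first cleavage.

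By these classes, 34 members were homologs of bacterial ribosomal proteins (21 of the large and 13 of the small subunit), and 23 were specific to mitochondria (14 large and 9 small). MRPL58, a peptidyl-tRNA hydrolase that became part of the large subunit, was left unclassed. Symbols do not always give the place of a protein: in human structures MRPS30 sits in the large subunit, and MRPS36 has been assigned in human cells to the 2-oxoglutarate dehydrogenase complex.

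The deposited values are MAS5 probe set signals, and the trimmed mean of each array lay between 500.1 and 500.2. As a level for dim probe sets, the highest of the 17 Tag control probe sets, which match no pig transcript, reached 33.3 and 39.5 on the anti-DJ1 arrays, 21.4 and 45.7 on the IgG arrays, 47.0 on the non-injected array and 34.3 on the donor array. The sums of the oocyte and fibroblast markers went with the labelled tissues. All 10 of 10 oocyte markers were above the Tag level on every embryo array, with summed signals of 77536 to 116850, against 3 of 10 in donor cells with a sum of 224. The 15 measured fibroblast markers summed to 3484 to 4171 on the embryo arrays and 97334 in donor cells. Most of the donor sum came from VIM, SPARC, FN1 and THY1, and LUM, DCN and POSTN were not above the Tag level there. DCN (54.7 to 111 in embryos, 5.58 in donor cells) and LUM were lowest in donor cells. The donor signals of COL5A2, COL6A3 and POSTN lay within the range of the embryo arrays. Of 13 measured cumulus and granulosa markers, 4 to 7 were above the Tag level on the embryo arrays and 4 in donor cells, with sums of 1749 to 2256 in embryos and 1037 in donor cells. The signal ratio of the 3′ to the 5′ probe set of the control transcript EF1A, a sign of transcript length in the labelled RNA, was 8.20 and 9.34 on the trial 2 embryo arrays and 23.9 to 29.9 on the trial 1 embryo arrays, and 4.23 in donor cells.

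Most members were detected everywhere. Above the Tag level were 50 and 54 of the 58 members on the anti-DJ1 arrays, 52 and 53 on the IgG arrays, 48 on the non-injected array and 58 on the donor array, and 46 members were above it on all 6. MRPL1, MRPS7, MRPS15 and MRPS34 were not above it on any embryo array. The median member signal was 234 and 464 in anti-DJ1 embryos, 256 and 478 in IgG embryos, 257 in the non-injected sample and 504 in the donor sample. For each injected group the higher of these values was that of trial 2. Across the 55 members tested, which share their arrays and scaling, log2 signals correlated at r = 0.901 to 0.991 between pairs of embryo arrays and at 0.309 to 0.429 between an embryo array and the donor array.

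**Figure D1:**
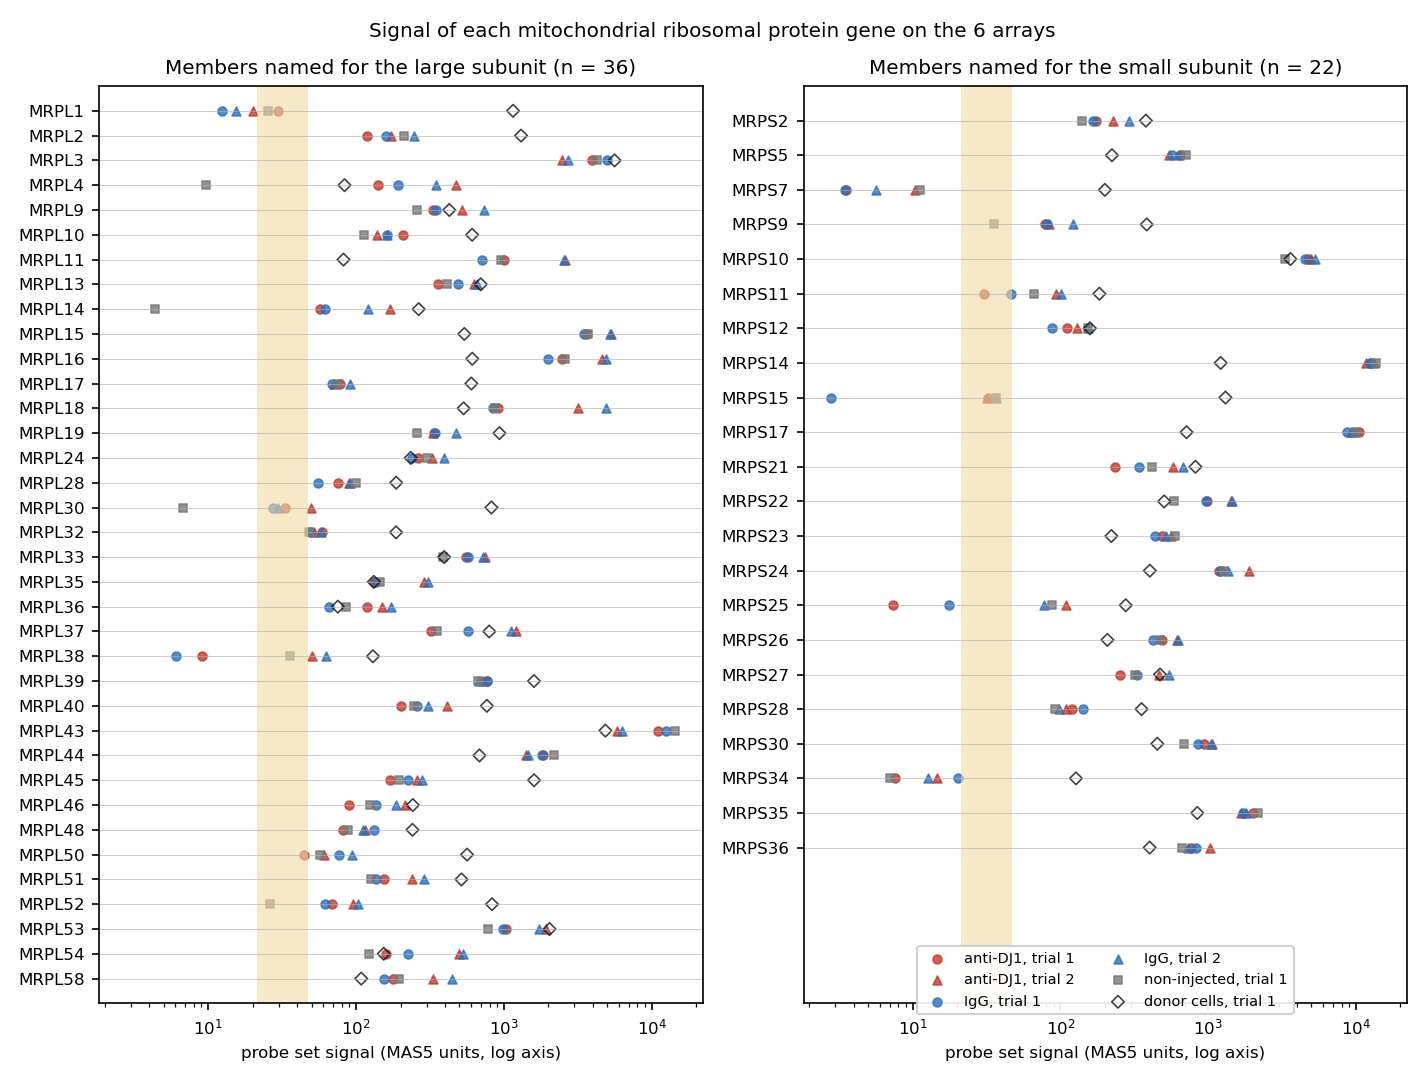
Signal of each of the 58 members on each array (MAS5 units, log axis), with genes down the page and 1 symbol per array. Shading spans the highest Tag control of the 6 arrays (21.4 to 47.0), and the donor array (open diamonds) lies far to the right of the embryo arrays for MRPL1 and MRPS15 and far to their left for MRPS14, MRPS17 and MRPL11.

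The first comparison asked whether blocking DJ-1 in the embryo went with a change in transcripts relative to IgG in the same trial. None of the 55 tested members passed an adjusted p of 0.05 in limma, and 0% of the 14399 tested probe sets did. MRPL38, MRPS7 and MRPS34 were too dim to be tested. Changes are on the scale of log2(signal + 4.57), which understates those of dim genes. At an unadjusted p under 0.05 there were 2 members, MRPL2 and MRPS21, and 838 probe sets in all. The fitted change was above 0 for 25 members and below 0 for 30, with a median log2 change of -0.0094 beside -0.0054 over all tested probe sets. The median member difference was 0.023 in trial 1 and -0.093 in trial 2.

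MRPL2, whose bacterial counterpart lies next to the peptidyl transferase centre, had signals of 118 and 173 with anti-DJ1, against 159 and 248 with IgG. Anti-DJ1 was the lower array within each trial, although the 2 groups overlapped across trials. Its log2 change was -0.47 ± 0.21 (SE, n = 2 each, limma adjusted p = 0.853). MRPS21, a homolog of bacterial S21, read 234 and 575 with anti-DJ1, against 342 and 681 with IgG. Here too anti-DJ1 was lower within each trial and the groups overlapped across trials, with a log2 change of -0.39 ± 0.18 (limma adjusted p = 0.853). For the mitochondria-specific large subunit protein MRPL50, signals were 44.7 and 60.8 in anti-DJ1 embryos and 76.5 and 93.9 in IgG embryos. Both anti-DJ1 arrays lay below both IgG arrays, and the log2 change of -0.65 ± 0.33 had a limma adjusted p of 0.892.

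At the other end, the largest fitted values belonged to members near or under the Tag level. MRPS15, which in bacteria binds the small subunit RNA early in assembly, was not above it in any of these embryos, with 32.5 and 31.8 in anti-DJ1 embryos and 2.81 and 36.4 in IgG embryos. Its log2 change of 1.08 came from the single low IgG array, and no fold can be given. MRPL1, a homolog of the mobile bacterial stalk protein L1, was likewise below it in all 4 samples. The next values were 0.45 for MRPL30, 0.31 for MRPL36 and 0.26 for MRPL11.

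The 2 trials were then set side by side. The change had the same direction in both trials for 22 of the 55 members, 8 higher and 14 lower, beside 51.3% of all tested probe sets. No member reached 2-fold in the same direction in both trials, beside 0.375% of all tested probe sets. MRPL4, a large subunit homolog of bacterial L4, had values that cancelled: the anti-DJ1 minus IgG difference was -0.45 in trial 1 and 0.45 in trial 2. The 95% interval stayed within 2-fold of no change for 47 of the 55 members, beside 10182 of the 14399 tested probe sets. Its median half-width was 1.37-fold for the members and 1.42-fold over all tested probe sets. These widths rest on 1 residual and 10.7 prior degrees of freedom. They thus come mostly from the spread of other probe sets and are not a measured spread of each gene between pools.

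**Figure D2:**
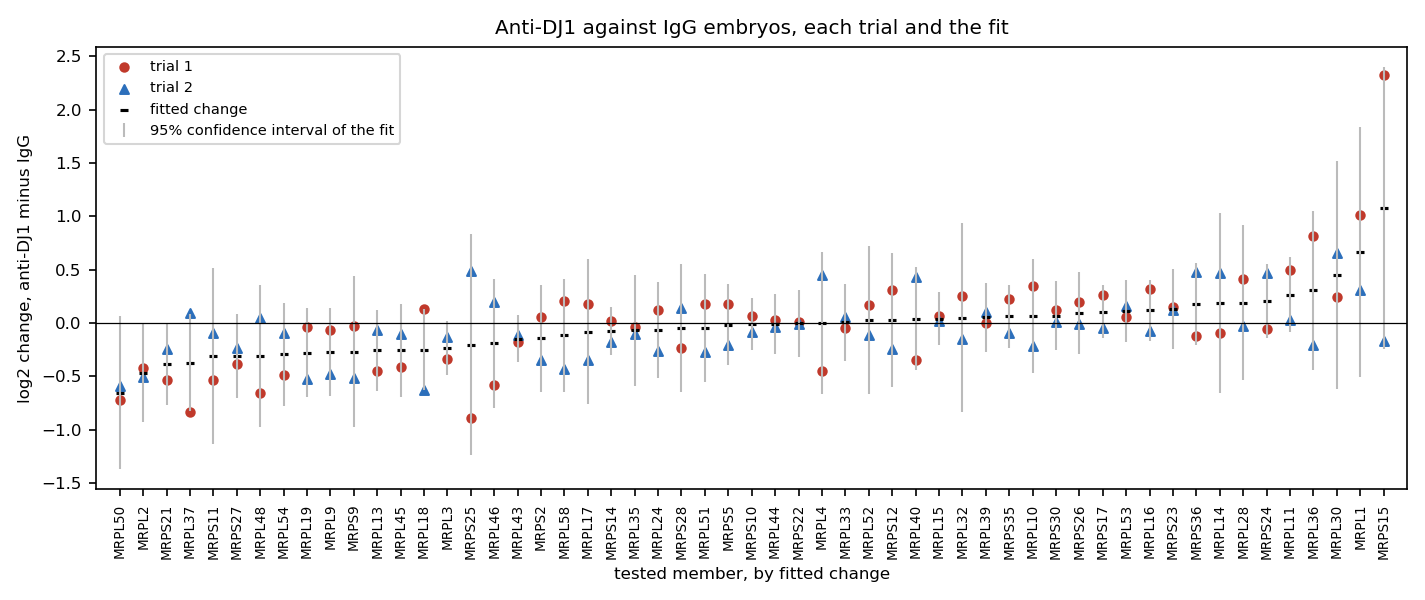
Log2 change of each tested member, anti-DJ1 minus IgG, in trial 1 (circles) and trial 2 (triangles), with the fitted change (dashes) and its 95% confidence interval (bars), ordered by fitted change. All but 2 intervals include 0, no member passed the test, and MRPS15 and MRPL1 at the right are members not above the Tag level in these embryos.

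The injected groups were next set against the single non-injected array of trial 1, which both comparisons share. In anti-DJ1 embryos 2 of 55 members were higher and 0 lower, beside 1.26% and 0.653% of all tested probe sets, or 1.92% in either direction. In IgG embryos 2 were higher and 0 lower, beside 0.917% and 0.347%, or 1.26% in either direction. Both times the members were MRPL4 and MRPL14, both homologs of bacterial large subunit proteins. The median log2 change of the members was -0.029 for anti-DJ1 and 0.012 for IgG, beside -0.0078 and -0.0059 over all tested probe sets. With an unadjusted p under 0.05 there were 13 members for anti-DJ1 and 10 for IgG, beside 18.5% and 17.3% of all tested probe sets.

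MRPL4 had signals of 140 and 474 in anti-DJ1 embryos and 194 and 345 in IgG embryos, against 9.63 in non-injected embryos. All 4 injected arrays lay above the non-injected one, where the gene was not above the Tag level. Within trial 1, which held the non-injected array, it was at least 2.81-fold higher on the anti-DJ1 array and at least 3.84-fold higher on the IgG array, with the dim array put at its Tag level. The fit, which uses both trials, gave a limma adjusted p of 0.00292 for anti-DJ1 and 0.00262 for IgG. Donor cells read 83.5, between the non-injected and the injected embryos.

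MRPL14, which faces the small subunit and in human cells also binds the assembly factor MALSU1, had 56.9 and 169 in anti-DJ1 embryos and 61.3 and 121 in IgG embryos, against 4.37 in non-injected embryos. Again all 4 injected arrays were higher, and the non-injected array was the only one of the 6 where it was not above the Tag level. By the same bound within trial 1 the gene was at least 1.19-fold higher with anti-DJ1 (limma adjusted p = 0.0228) and at least 1.28-fold higher with IgG (limma adjusted p = 0.0327). Both genes rest on 1 non-injected array, whose spread is assumed to be that of the other groups. All 4 calls were lost when the trial term or the mean-variance trend was removed, and in each fit that left out 1 injected array, which also lacked the trial term (limma adjusted p from 0.0854 to 0.721). Without a filter on dim probe sets the calls for MRPL14 were lost too (limma adjusted p = 0.076 and 0.103).

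MRPL46, a mitochondria-specific large subunit protein, gave a different answer by probe set. Its second probe set had 126 and 167 in anti-DJ1 embryos and 152 and 185 in IgG embryos, against 39.6 in non-injected embryos, where it was not above the Tag level. It passed in both comparisons, with trial 1 bounds of at least 2.53-fold for anti-DJ1 and 3.03-fold for IgG. Those calls were lost without the trial term, the trend or the filter, and whenever 1 injected array was left out, and that for anti-DJ1 also without the pseudocount. Its brightest probe set did not, with 89.5 and 214 in anti-DJ1 embryos, 136 and 186 in IgG embryos and 124 in non-injected embryos. Among the remaining members, MRPS25 had the lowest fitted values and did not pass (limma adjusted p = 0.0585 for anti-DJ1 and 0.0805 for IgG). Signals of this mitochondria-specific small subunit protein were 7.40 and 110 in anti-DJ1 embryos, 17.7 and 77.1 in IgG embryos and 88.1 in non-injected embryos, so only the trial 1 injected arrays were far below, both under their Tag level. MRPS22, mutated in a human mitochondrial disease, had 0.72 in both comparisons (limma adjusted p = 0.073 and 0.0835). MRPL30, MRPL52 and MRPS9 had fitted values above 0 in both comparisons without passing, and none of them was above the Tag level on the non-injected array. Another tested probe set had the opposite sign for MRPL52 (-0.59 for anti-DJ1 and -0.44 for IgG) and for MRPS9 (-1.13 and -0.84), also without passing.

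**Figure D3:**
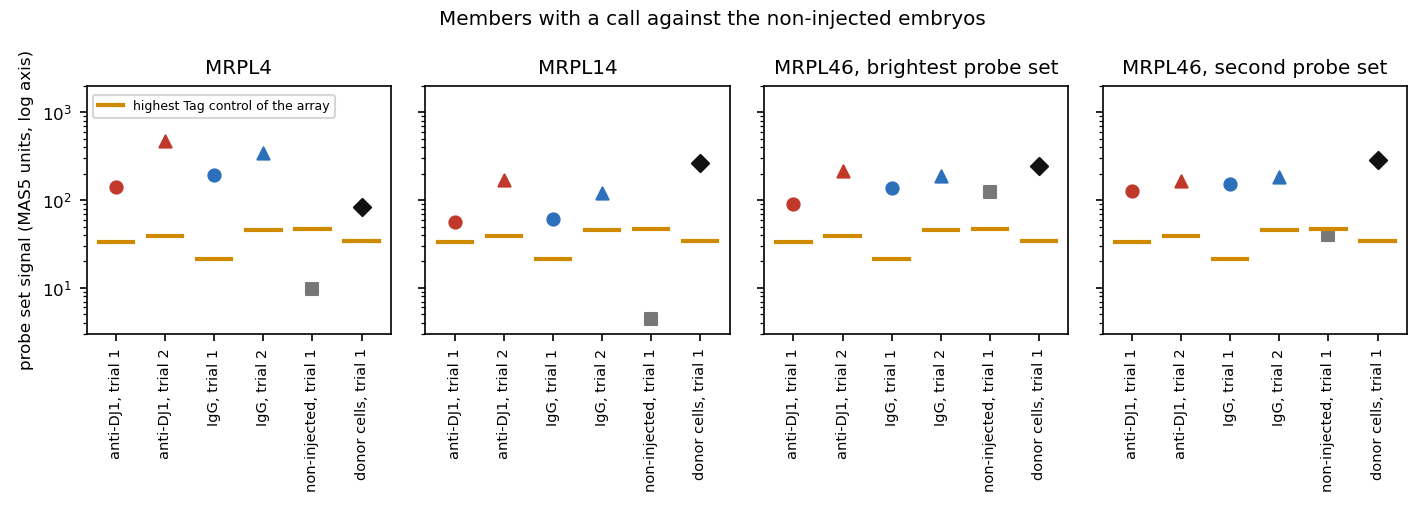
Signal (MAS5 units, log axis) of MRPL4, MRPL14 and the brightest and second probe sets of MRPL46 on each of the 6 arrays, with the highest Tag control of each array as a short line. The non-injected square lies at 9.63 for MRPL4 and 4.37 for MRPL14, under its Tag line, while all 4 injected arrays lie above theirs.

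Embryos were then compared with the donor cells, a comparison of a cleavage embryo pool with a fibroblast culture in which fewer transcripts per cell and a smaller share of the labelled RNA cannot be told apart. In the fit, the mean of the 3 embryo groups is taken at the level of trial 1, which held the donor array. With 1 donor array, the spread of donor cells is assumed to be that of the other groups, so the errors and p-values hold no spread between donor cultures. Of the 55 tested members, 46 passed, 17 higher and 29 lower in embryos. The total was 28 without the trial term, where 7630 of the 14399 tested probe sets passed in either direction. When 1 injected array was left out, in fits that also lack that term, the median member log2 change was -0.53 to -0.32. Over all tested probe sets the median was -0.023 to 0.053 in those fits. In the fit with the trial term and all arrays, 72.9% of all tested probe sets passed, 36.4% higher and 36.5% lower. A large part of the array thus differed between embryos and fibroblasts. MRPL1, MRPL30 and MRPS15 are among the 29 and came through the filter on dim probe sets only by their donor signal, so they had to differ. The other 52 members had 17 higher and 26 lower. The median log2 change of the members was -0.65, beside -0.025 over all tested probe sets, with a range of -5.87 to 3.76. At least 4-fold differences numbered 4 higher and 11 lower, beside 18.6% and 19.7% of all tested probe sets. All 5 embryo arrays were above the donor array for 19 members and below it for 28, leaving 8 on both sides, where 80.3% of all tested probe sets had the 5 arrays on one side.

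The members highest in embryos included both subunits. MRPS17, whose bacterial homolog binds the small subunit RNA, ranged from 8756 to 10473 over the 5 embryo arrays with a median of 9478, against 714 in donor cells. All embryo arrays were more than 10-fold above the donor array, and the log2 change was 3.76 ± 0.13 (limma adjusted p = 8.91e-11). MRPS14, another small subunit homolog, spanned 11763 to 13569 in embryos with a median of 12720, against 1215 in donor cells. Its embryo arrays also stood together and apart from the donor array, with a log2 change of 3.41 ± 0.12 (limma adjusted p = 1.06e-10). MRPL11, at the base of the stalk that receives translation factors in bacteria, had 1009 and 2605 in anti-DJ1 embryos, 714 and 2552 in IgG embryos and 956 in non-injected embryos, against 82.2 in donor cells. Every embryo array was higher, the trial 2 arrays most of all, and the log2 change was 3.36 ± 0.19 (limma adjusted p = 6.60e-09). MRPL15 followed at 2.73, MRPL16 at 1.93, MRPS24 at 1.60, MRPS5 at 1.50, MRPL44 at 1.49, MRPL43 at 1.37 and MRPS35 at 1.21, all higher in embryos.

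At the low end stood members that were bright in fibroblasts and at or under the Tag level in embryos. MRPS15 ranged from 2.81 to 36.8 over the embryo arrays with a median of 32.5, against 1310 in donor cells, and was at least 32.2-fold lower in embryos. MRPL1 ranged from 12.4 to 29.7 in embryos with a median of 20.2, against 1153 in donor cells, and was at least 28.4-fold lower. Neither was measured above the Tag level in any embryo sample, so their fitted changes of -5.87 and -5.48 are not sizes. MRPS7, whose bacterial homolog lies near the messenger exit, and MRPS34 were not tested, and their embryo signals were at least 5.02-fold and 3.24-fold lower by the same bound.

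MRPL30 ranged from 6.73 to 49.5 in embryos with a median of 29.7, against 824 in donor cells. Among the embryo arrays it was above the Tag level on only 2 of 5, the anti-DJ1 array of trial 2 and the IgG array of trial 1, so its change is given no size. Further down the list MRPL50 changed by -3.18, MRPL2 by -3.01 and MRPL17 by -2.95. MRPL52, MRPS25 and MRPL14 had fitted values of -3.98, -3.27 and -3.03. Those values rest in part on embryo signals under the Tag level, so they are not sizes. On the trial 2 arrays, where each was above that level, the mean differences from the donor array were -3.01, -1.54 and -0.87, in that order. MRPL45, which in human mitochondria anchors the ribosome to the inner membrane, had 168 and 259 in anti-DJ1 embryos, 226 and 278 in IgG embryos and 196 in non-injected embryos, against 1600 in donor cells. Every embryo array was more than 5-fold under the donor array for that gene, which also passed.

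The 2 subunits differed in their counts. Among members named for the large subunit, 7 of 35 were higher and 21 lower in embryos, with a median log2 change of -1.05. Among those named for the small subunit, 10 of 20 were higher and 8 lower, with a median of 0.45. By class, the mitochondria-specific large subunit proteins had 2 higher and 10 lower of 13, and the mitochondria-specific members named for the small subunit had 6 higher and 2 lower of 8. Those 6 include MRPS30 (0.85) and MRPS36 (0.89), which human work places outside the small subunit. The bacterial homologs had 4 higher and 11 lower of 21 in the large subunit, and 4 higher and 6 lower of 12 in the small subunit. The lower counts of the subunits and of the bacterial homologs include MRPL1, MRPL30 and MRPS15, which came through the filter only by their donor signal. Over all tested probe sets 36.4% were higher and 36.5% lower. Whether the subunits differ was not tested, since genes of one particle are not independent samples.

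Counts of higher and lower members moved with the scaling of the arrays. The same comparison gave 21 higher and 22 lower after quantile normalization, and 22 higher and 21 lower after scaling each array to a common 75th percentile, where 72.8% and 73.7% of all tested probe sets passed. Those scalings raised the median of all tested probe sets to 0.42 and 0.59, and relative to that median the members lay at -0.62 with the deposited scaling, -0.70 after quantile normalization and -0.61 with the common percentile. Passing the same way under all 3 scalings were 17 members higher and 20 lower. The 20 include MRPL1, MRPL30 and MRPS15, which came through the filter only by their donor signal. The share of all tested probe sets that did so was not counted, so these counts have no array-wide value beside them. The large subunit median stayed below that of all probe sets (-1.02, -0.95 and -1.02) and the small subunit median above it (0.48, 0.35 and 0.49). MRPL3 changed by -0.36 with the deposited scaling and turned to 0.27 with the common percentile, where it did not pass (limma adjusted p = 0.0814).

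The trial also mattered for this comparison. Against the same donor array, the median member difference was -0.11 for the 2 embryo arrays of trial 2 and -0.65 for the 3 of trial 1, beside 0.20 and -0.025 over all tested probe sets. At least 2-fold differences were 20 higher and 19 lower in trial 2, beside 34.7% and 30.2% of all tested probe sets, and 12 higher and 25 lower in trial 1, beside 31% and 32.6%. MRPL37, MRPS27, MRPL9 and MRPL4 were above the donor array by the trial 2 mean and below it by the trial 1 mean. Each embryo group alone gave similar counts from the same fit, all against the 1 donor array. Anti-DJ1 embryos had 17 members higher and 29 lower (69.9% of all tested probe sets passed), IgG embryos 17 and 27 (69.7%), and non-injected embryos 15 and 28 (68.7%). The 3′ to 5′ ratio of EF1A differed in the same comparison, 8.20 to 29.9 on embryo arrays and 4.23 in donor cells, and its part in the result was not tested.

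**Figure D4:**
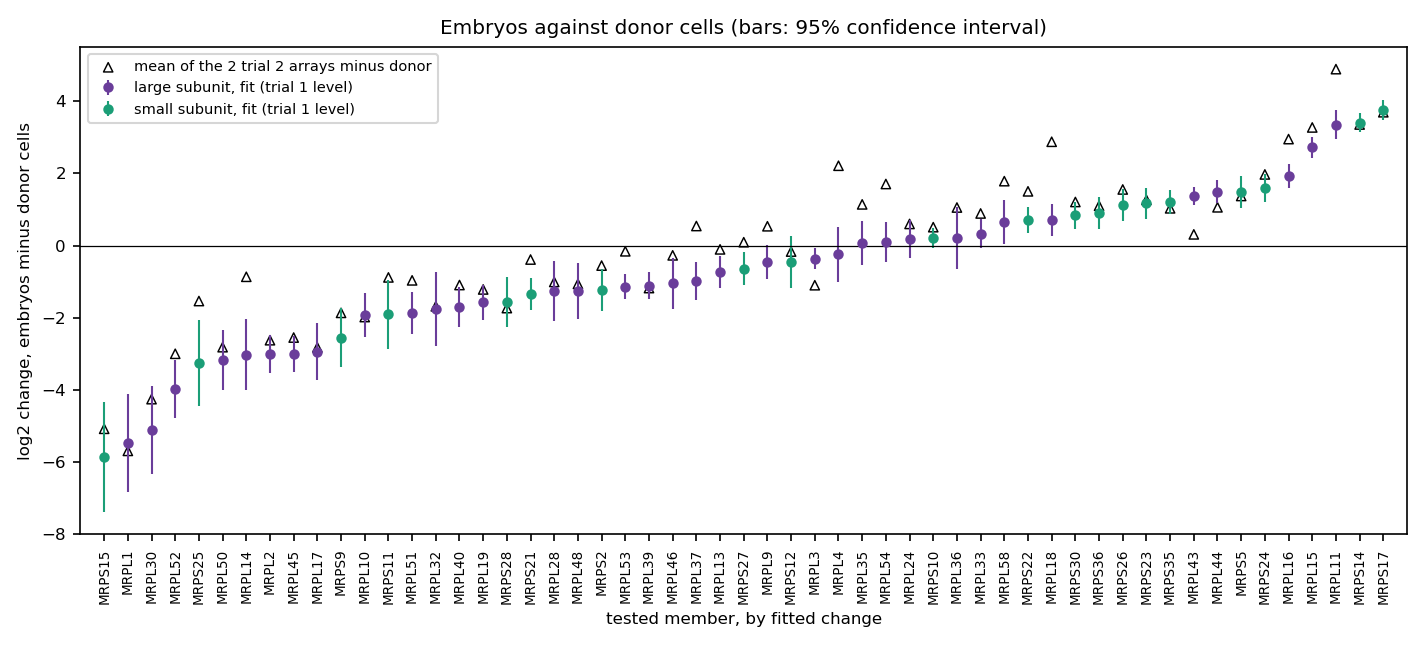
Log2 change of each tested member, embryos minus donor cells, from the fit at the level of trial 1 with its 95% confidence interval, coloured by subunit, and the mean of the 2 trial 2 embryo arrays minus the donor array (open triangles). Values run from -5.87 for MRPS15 to 3.76 for MRPS17, and most triangles lie at or above the fitted points.

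A last comparison set the trial 2 embryo pools against those of trial 1, using the anti-DJ1 and IgG pairs. Of the 55 tested members, 21 were higher and 2 lower in trial 2, beside 18.9% and 13.4% of all tested probe sets, or 32.3% in either direction. The median log2 change was 0.49 beside 0.14 over all tested probe sets, and it was 0.43 in the anti-DJ1 pair and 0.56 in the IgG pair. Both pairs moved up for 38 members and down for 5, beside 45.9% and 30.4% of all tested probe sets. For 31 members both trial 2 arrays were above all 3 trial 1 embryo arrays, the non-injected one included, and for 3 members below. By the same rule the trials did not overlap for 54.1% of all tested probe sets, 33.9% with trial 2 higher.

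MRPL18, a homolog of the bacterial protein that binds 5S rRNA, had 3180 in anti-DJ1 and 4934 in IgG embryos of trial 2, against 919 and 839 in trial 1. The trials were far apart in both groups, with a log2 change of 2.17 ± 0.17 (limma adjusted p = 1.47e-05). MRPS25 had 110 and 77.1 in trial 2, anti-DJ1 first, against 7.40 and 17.7 in trial 1. Both of these trial 1 signals were under the Tag level, and among injected embryos MRPS25 was at least 3.08-fold higher in trial 2 (limma adjusted p = 0.00172). The non-injected array of trial 1, at 88.1, was above its Tag level and lay between the 2 trial 2 signals. MRPL11 changed by 1.60, MRPL37 by 1.42 and MRPL54 by 1.41, all higher in trial 2. MRPL4 changed by 1.27 and MRPL14 by 1.22, so the members with calls against the non-injected array also differed between trials.

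Lower in trial 2 were MRPL43 and MRPL3, joined by MRPL44 (-0.34) under both other scalings of the arrays. MRPL43, a mitochondria-specific large subunit protein, had 5787 in anti-DJ1 and 6269 in IgG embryos of trial 2, against 10970 and 12409 in trial 1 (log2 change -0.95 ± 0.10, limma adjusted p = 6.08e-05). MRPL3 changed by -0.76 ± 0.11 (limma adjusted p = 0.000479). In contrast, MRPS14 and MRPS17, the members highest against donor cells, had trial changes of -0.012 and -0.037 with 95% intervals of -0.24 to 0.21 and -0.28 to 0.21.

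Relative to all tested probe sets the members stood 0.35 higher with the deposited scaling, 0.31 after quantile normalization and 0.35 with the common percentile. Under those alternatives 16 members higher and 3 lower passed after quantile normalization, and 15 higher and 3 lower with the common percentile. Beside these counts, 4143 and 4860 of the 14399 tested probe sets passed in either direction, quantile normalization first. Removing the mean-variance trend from limma left 0 members and 0 probe sets past the threshold, with 24 members at an unadjusted p under 0.05. The EF1A ratio was lower on both trial 2 arrays (8.20 and 9.34) than on the trial 1 arrays of the same groups (24.2 and 23.9), and its part in the shift was not tested. Oocyte pool, handling and array run share the trial and cannot be told apart.

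**Figure D5:**
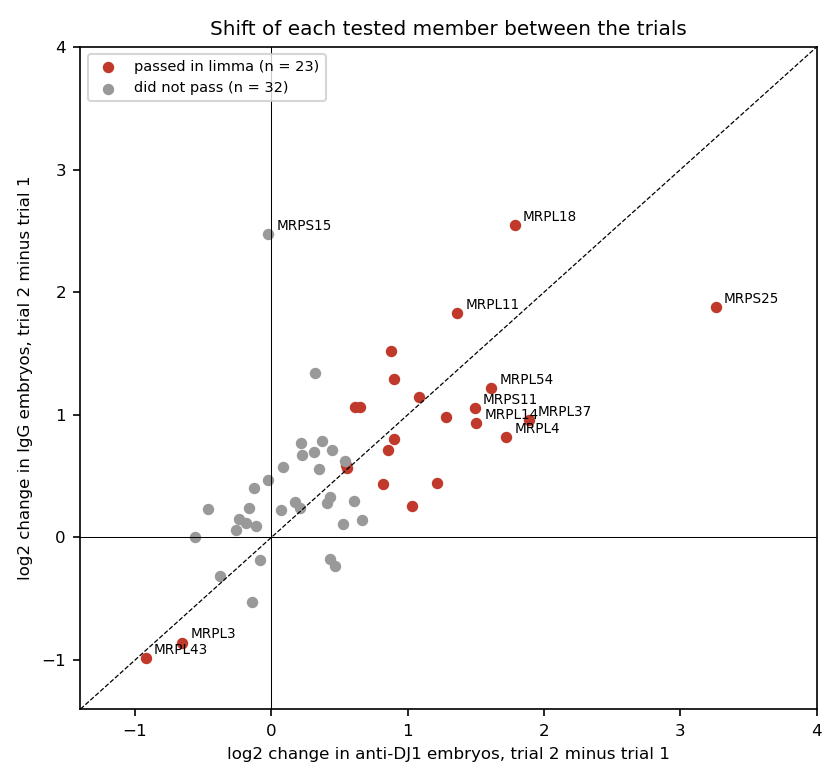
Log2 change of each tested member trial 2 minus trial 1, in anti-DJ1 embryos (horizontal axis) and in IgG embryos (vertical axis), with members that passed in limma in red and the line of equal change dashed. Most points lie in the upper right, with MRPL18 far out, MRPS25 drawn at fitted values that rest on trial 1 signals under the Tag level, and MRPL43 and MRPL3 alone among the members that passed at the lower left.

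Of the members, 14 had more than 1 probe set (MRPL2, MRPL3, MRPL15, MRPL18, MRPL32, MRPL33, MRPL35, MRPL38, MRPL43, MRPL46, MRPL52, MRPS2, MRPS9 and MRPS12), and 12 had at least 2 that were tested. Between embryos and donor cells, probe sets of MRPL3, MRPL35 and MRPL52 had opposite signs, and those of MRPL3 and MRPL52 passed in opposite directions. For MRPL52 the fitted value of the brightest probe set was -3.98, with 26.0 to 104 in embryos against 831 in donor cells. Another had 1.56, with 66.6 to 196 in embryos against 27.0 in donor cells. The order of embryos and donor cells thus turned with the probe set. For MRPL3 the changes ran from -0.77 to 2.07, and the chosen probe set gave -0.36. Between trials MRPL3 and MRPL43 had probe sets that passed in opposite directions, -0.95 and 1.67 for MRPL43. In the comparisons with no more than a pair of calls, opposite signs were found for 5 members between anti-DJ1 and IgG embryos, 8 between anti-DJ1 and non-injected embryos and 7 between IgG and non-injected embryos. Directions for these genes are therefore those of the named probe set.

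Genes that work with the ribosome in mitochondrial translation were read from lists. None of them passed between anti-DJ1 and IgG embryos. The 8 tested translation factors had 2 higher and 6 lower in embryos than in donor cells, with a median log2 change of -1.68. The elongation factors TSFM, TUFM and GFM1 changed by -2.29, -1.99 and -1.01. MRRF, which recycles ribosomes after termination, was higher at 1.28, as was SLIRP, which stabilises mitochondrial messages, at 0.92. Of 4 tested mitochondrial tRNA synthetases IARS2 was higher (2.24) and FARS2 lower (-2.52). DAP3 and CHCHD1, small subunit proteins with other symbols, were lower at -2.07 and -1.77, and PTCD3 did not pass (-0.32).

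Among 16 genes of ribosome assembly and ribosomal RNA modification, 5 were higher and 8 lower in embryos than in donor cells. MTERF3 was the highest at 2.86, and the rRNA methyltransferases MRM3 and MRM2 were higher at 1.78 and 1.70. MALSU1, the partner of MRPL14, was the lowest at -4.21. TFAM, which packages mitochondrial DNA and starts its transcription, had 43.1 and 48.1 in anti-DJ1 embryos, 22.3 and 53.6 in IgG embryos and 23.8 in non-injected embryos, against 3685 in donor cells. Each embryo signal of TFAM was near or under the Tag level, and it came through the filter only by its donor signal, as TACO1 did among the translation factors.

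YBEY, an endoribonuclease that in human mitochondria acts in small subunit assembly, had 263 and 328 in anti-DJ1 embryos and 267 and 286 in IgG embryos, against 26.4 in non-injected embryos. As with MRPL4, every injected array was higher and the non-injected array was not above the Tag level. Within trial 1 YBEY was at least 5.19-fold higher with anti-DJ1 (limma adjusted p = 0.00102) and at least 5.27-fold higher with IgG (limma adjusted p = 0.00114). TBRG4, a mitochondrial RNA-binding protein, had 146 and 137 in anti-DJ1 embryos and 117 and 171 in IgG embryos, against 15.5 in non-injected embryos, and was at least 2.91-fold and 2.35-fold higher in trial 1, anti-DJ1 first (limma adjusted p = 0.00881 and 0.009). The calls of both genes were lost without the trial term or the trend, and in each fit that left out 1 injected array. These 2 genes and the 2 members share the non-injected array as their low value. That array had the highest Tag level and the fewest members above it of the 6 arrays.

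The cytosolic ribosome and the respiratory chain give a setting for these values. Between embryos and donor cells 36.4% of all tested probe sets were higher and 36.5% lower. The mitochondrial ribosomal protein genes had 17 higher and 29 lower of 55, with a median log2 change of -0.65. Of 56 tested cytosolic ribosomal protein genes, 1 was higher and 55 lower in embryos, with a median of -4.57. Of 51 tested nuclear genes for respiratory chain and ATP synthase subunits, 3 were higher and 42 lower, with a median of -2.07. Some genes in each list came through the filter on dim probe sets only by their donor signal, so they had to differ. They were RPL13 and RPL23 of the cytosolic ribosome, ATP5S, NDUFA2 and NDUFS1 of the respiratory list, and MRPL1, MRPL30 and MRPS15. Between trials the medians were 0.49 for mitochondrial ribosomal proteins, 0.70 for cytosolic ribosomal proteins and 0.54 for respiratory chain subunits. Whether the lists differ was not tested.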

How the data were processed

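The array was the Affymetrix Porcine Genome Array, with 1 array for each of 6 pig samples. Per the labels, RNA was labelled by a biotin method with 2 amplification cycles, and the deposited value of a probe set is a linear intensity. The submitters' processing notes name MAS5, with its version not given in the sources used here. Of 24123 probe sets, 124 AFFX controls were left out, and the 14399 with the highest mean log2 signal (upper 60%) were tested on log2(signal + 4.57), 4.57 being the 10th percentile of all signals. Fold changes on this scale understate those of dim genes. The fit used limma 3.58.1 in R 4.3.3 over the 6 arrays, with terms for group and for trial, a mean-variance trend and Benjamini-Hochberg adjustment over all tested probe sets, with a threshold of 0.05. It leaves 1 residual degree of freedom, and the moderated variance adds 10.7 prior degrees of freedom. Trial was a term because the series design pairs each anti-DJ1 sample with the IgG sample of its trial; across probe sets, arrays of the same trial deviated together from the group mean (r = 0.588). Gene symbols came from the platform annotation, which can be old. It gave 10069 probe sets 1 symbol, 198 several and 13732 none. Genes were named when they passed in any comparison, were among the 5 largest changes in a direction, had several probe sets or were under the filter. For the other lists, the named genes passed or had the smallest p. Members and lists were chosen with earlier results of these data known. Arrays give no read depth; their number limits the precision. Alternatives covered scaling, pseudocount, filter, trial term, trend, each injected array left out and all probe sets of each gene. The trial-wise donor comparison and the restriction to members above the Tag level on all 6 arrays were chosen after seeing the data.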

Additional observations from a re-analysis of the deposited data

How the results depend on the processing

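Between anti-DJ1 and IgG embryos 0 members passed under every alternative run, and the median member change ranged from -0.29 to 0.24 when 1 injected array was left out. Against non-injected embryos, the 2 members counted for anti-DJ1 became 4 with the pseudocount at the 25th percentile (MRPS22 higher and MRPS25 lower were added), 3 with the common 75th percentile (MRPS25 lower), 3 over the upper 40% of probe sets (MRPL4, MRPS10 and MRPS22 higher) and 1 without the filter. The 2 for IgG became 3 with the pseudocount at the 25th percentile (MRPS25 lower), 3 over the upper 40% (the same 3 symbols) and 1 without the filter. Both counts were 0 without the trend and 0 to 0 in the fits that left out 1 array. Calls over the whole array moved as well. For anti-DJ1 the 276 probe sets became 589 with that pseudocount, 466 with the common percentile, 878 over the upper 40% and 71 without the filter. For IgG the 182 became 447 with that pseudocount, 726 over the upper 40% and 48 without the filter. The fit without the replicate block, that is without the trial term, gave 0 members and 0 probe sets in both comparisons with the non-injected array. It gave 28 members between embryos and donor cells, where 7630 of the 14399 tested probe sets passed. Leaving out 1 injected array gave 25 to 30 members between embryos and donor cells. In those fits the calls over all tested probe sets also stayed near the 7630 of the fit without the trial term. The member count is thus not read as particular to the members. The member median was -0.53 to -0.32 in those fits, beside -0.023 to 0.053 over all tested probe sets. With all arrays kept, the member median of embryos against donor cells was -0.019 with the common 75th percentile and 0.079 over the upper 40% of probe sets. It was -0.11 for the trial 2 arrays alone. Over all tested probe sets the median in these settings was 0.59, 0.33 and 0.20, in that order. With the deposited scaling the median was -0.15 over the 46 members above the Tag level on all arrays. MRPL3 turned from lower to higher, 0.27, with the common percentile. The trial count was 0 without the trend, and the trial median was 0.30 after quantile normalization and 0.25 with the common percentile. The cause of these shifts was not tested. Fits without 1 array hold a single sample in 1 arm, assumed to vary like the others, and lack the trial term, so the trial shift enters their spread.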
